A study of Mus musculus with 12 samples.

Results

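The basal and luminal fractions of the mammary epithelium of female FVB/NJ mice labelled as controls, which are not among the ovariectomized mice of the series, were compared by microarray. Cells negative for CD45, CD31 and TER119, the surface markers of leukocytes, endothelium and erythroid cells, were sorted by CD24 and CD29 (integrin beta-1) into a MaSC-enriched fraction (CD29hiCD24+; MaSC stands for mammary stem cell) and a luminal fraction (CD29loCD24+), each at a stated purity above 90%. Both fractions were taken from control pool 1 and from control pool 4, so that 4 of the 8 RNA samples of the series, on 6 of its 12 arrays, carry the comparison, with 2 RNA samples a side. The 2 remaining pools were ovariectomized (ovx) at 8 weeks of age and collected 4 weeks later, with 6 mice a pool; the age, surgery and pool size of the control mice are not given in the sources used here. All mice were of 1 strain, no transgene or hormone treatment is named, and the ovx samples entered the normalization, the filter on dim probes and the estimate of spread, and serve below as a second set of mice for the same comparison.

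The mammary duct is a bilayer. Outer basal cells lie on the basement membrane, most of them are contractile myoepithelial cells that squeeze milk from the alveoli in response to oxytocin, and transplantation assays place most mammary repopulating activity in this fraction. Inner luminal cells line the lumen; they include hormone-sensing cells with oestrogen and progesterone receptors and receptor-negative progenitors that give rise to milk-secreting alveolar cells. The MaSC-enriched gate holds the whole basal layer, of which stem cells are a small part, so its profile cannot be read as that of stem cells. In bulk RNA, fewer cells of a type and less RNA per cell cannot be told apart.

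Values are normalized log2 intensities, given for pool 1 first and pool 4 second, and differences are MaSC-enriched minus luminal on the log2 scale with the standard error (SE) of the limma fit. A gene was called at an adjusted p (limma, Benjamini-Hochberg over all kept probes) under 0.05. The MaSC-enriched sample of pool 1 stood apart in sensitivity: 12994 of 45281 probes (28.7%) were detected on its array, against 17705 to 18903 on the others, and the dimmest detected probe lay at 7.29 there and at 5.73 to 5.93 elsewhere. Arrays of the same RNA correlated at 0.992 to 0.993, control arrays of 1 fraction from both pools at 0.882 to 0.947, and control arrays of different fractions at 0.796 to 0.895. Where none of a gene's probes was detected on any array of the lower group, the fold is written "at least", against the higher of the dim probe and the dimmest detected probe of each array. Other genes keep a full difference, even where their value in the MaSC-enriched sample of pool 1 lay under 7.29 and so was not detected. Among the lower genes these include Cldn6, Tph1, Esrrb, Pgr, Wnt4, Wnt7b and Tnfsf11. On the other side, Tenm2, Krt5, Tagln, Wnt10a, Cdh3 and Itga9 are higher genes with a low luminal value. In at least 1 pool it lay under the dimmest detected probe of the control luminal arrays, at 5.74 to 5.83. The size and rank of differences of both kinds are uncertain. A gene with several probes is given by its brightest. Among the called genes named, the other probes of Aldh1a3, Mcam, Muc15 and Nid1 lay in the same direction without passing (adjusted p 0.0544 to 0.0939), and some but not all of those of Adamts1, Ccnd2, Cdh3, Ceacam1, Egfr, Fbln1, Fbln2, Igf1r, Ltbp4, Nrg1, Nrp1 and Sema5a passed. The sort markers gave a mixed picture. Itgb1, the gene of CD29, was higher in MaSC-enriched cells (9.91 and 10.44 against 8.74 and 8.62; difference 1.49, SE 0.32, adjusted p = 0.0297), although its other probe stood at −0.05. The probe of Cd24a, at 5.33 and 7.02 against 8.21 and 6.98, was dim and overlapped between the fractions (adjusted p = 0.27). The Itgb1 call ended without either control luminal sample or any ovx sample (adjusted p up to 0.124).

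Of 11292 genes tested, 1328 (11.8%) were called, 780 higher (6.91%) and 548 lower (4.85%) in MaSC-enriched cells. The counts of list members below are to be read beside these shares. Every one of the 1328 differed in the same direction in both pools, with no overlap between the fractions and a change of at least 2-fold; over all tested genes 53% did not overlap, and 3182 had an unadjusted p under 0.05. The higher genes moved further: 306 of them and 117 of the lower genes differed by 8-fold or more. The median difference over all tested genes was −0.12. Without the MaSC-enriched sample of pool 1, the counts were 647 higher and 348 lower. They were 1481 and 1392 without the MaSC-enriched sample of pool 4, 317 and 134 without the luminal sample of pool 1, 507 and 362 without the luminal sample of pool 4, and 514 and 215 without either ovx luminal sample. The count also rested on the ovx samples, which share in the estimate of spread: with the 4 control samples alone it was 245 higher and 73 lower. Both beadchips held both fractions; within beadchip 1, which held 1 control luminal sample, the counts were 95 and 31, and within beadchip 2, which held 1 control MaSC-enriched sample, they were 697 and 388, so that both fits assume that the lone sample varied like the other groups. With single arrays fitted with the beadchip as a block and a random effect for each RNA, the counts were 922 and 682. With the filter set on the 4 control samples alone, 10350 genes were tested and 1296 of the 1328 were called. Every called gene that a fit tested kept its direction in these fits. Where a fit only leaves out samples, this follows from the lack of overlap between the fractions and is no further test. The fit of the control samples alone and the one with another filter reuse the same group means. Their direction was fixed as well.

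**Figure D1:**
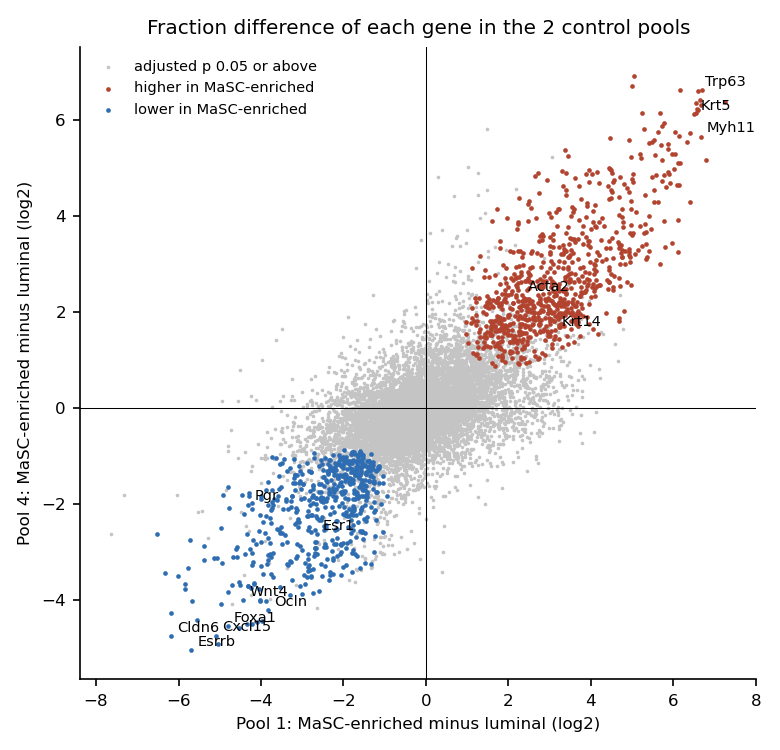
MaSC-enriched minus luminal difference of each of the 11292 tested genes in pool 1 (x axis, log2) and pool 4 (y axis, log2), 1 point a gene, with the 780 genes called higher in red, the 548 called lower in blue and the others in grey. All called genes lie in the quadrants where both pools have the same sign, and Trp63, Krt5 and Myh11 lie at the upper right end.

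Among the 12 largest positive differences taken by the rule for names, Tenm2, a teneurin adhesion receptor, led with 13.23 and 12.06 against 5.97 and 5.68 (difference 6.82, SE 0.43, adjusted p = 0.000459). Trp63, the transcription factor p63 that maintains basal cells in stratified and glandular epithelia, stood at 13.08 and 13.17 against 6.47 and 6.56 (6.60, SE 0.45, adjusted p = 0.000579). Next came Actg2 (6.52), the extracellular matrix glycoprotein gene Reln (6.45), the chemokine gene Cxcl14 (6.40), the copper monooxygenase gene Moxd1 (6.39), Fst (6.34) and the calcium/calmodulin kinase gene Camk4 (6.07, with another probe detected on 1 luminal array). Col17a1, Col7a1, Krt5 and Myh11 complete the 12 largest and are described with their groups. None of these 12 calls ended when any 1 of the 8 RNA samples was left out.

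Among the 12 largest negative differences, Cldn6, a claudin of embryonic epithelia, stood at 5.37 and 5.81 in MaSC-enriched cells against 11.56 and 10.56 in luminal cells (−5.47, SE 0.42, adjusted p = 0.000881). Tph1, the first enzyme of serotonin synthesis outside the nervous system, stood at 5.94 and 6.86 against 10.99 and 11.78 (−4.98, SE 0.44, adjusted p = 0.00145). The serotonin it makes is a local regulator of the lactating gland. In MaSC-enriched cells of pool 1 the values of Cldn6 and Tph1 lay under the dimmest detected probe of the array, at 7.29. Cited1, a coactivator of the oestrogen receptor, was at −4.98, the chemokine gene Cxcl15 at −4.92, the tryptophan-degrading enzyme gene Ido1 at −4.88, the desaturase family gene Fads6 at −4.85 and the cathepsin gene Ctsr at −4.56. The uroplakin gene Upk2 was not detected on any MaSC-enriched array and was at least 12.9-fold lower (adjusted p = 0.0144). Cntnap2, a neurexin family gene, had 1 bright probe, at least 10.4-fold lower (adjusted p = 0.00724), and another at −1.80 that was not called. Ido1, Ctsr and Cxcl15 differed strongly between the pools within the luminal fraction, with Ido1 at 12.32 in pool 1 and 9.04 in pool 4. Their calls ended without the luminal sample of pool 1 (adjusted p = 0.104, 0.0597 and 0.0806), those of Ido1 and Ctsr also without the MaSC-enriched sample of pool 1 (0.0655 and 0.0669), and that of Ido1 without either ovx luminal sample (0.0654). The Cited1 call ended without the luminal sample of pool 1 (0.0541).

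Keratins form the intermediate filaments of epithelia, and the basal and luminal layers use different pairs. Of 7 basal keratins tested, 4 were called higher and none lower (median 2.99). Krt5 stood at 11.91 and 12.68 against 5.41 and 6.58 (6.31, SE 0.54, adjusted p = 0.00125), the widest gap of the list. Krt17 followed with 14.86 and 14.63 against 9.56 and 10.80 (4.57, adjusted p = 0.00396). Krt14, the partner of Krt5, was bright in both fractions, at 14.87 and 14.51 against 11.75 and 12.90 (2.37, SE 0.57, adjusted p = 0.0432), and did not pass with the pool as a block (0.0639). Krt15 stood at 10.81 and 13.34 against 8.55 and 8.96 (3.32, adjusted p = 0.0469), with pool 4 well above pool 1 among MaSC-enriched cells. The calls of Krt14 and Krt15 ended without either control luminal sample or either ovx MaSC-enriched sample (adjusted p up to 0.229), which left 2 calls in the list. That of Krt14 ended also without the MaSC-enriched sample of pool 1 (0.119) and that of Krt15 without either ovx luminal sample (0.0768).

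Among 5 keratins listed as luminal, 1 was lower, 1 was higher and 3 were not called. Krt7 was lower, at 9.92 and 7.99 against 13.16 and 11.56 (−3.41, SE 0.83, adjusted p = 0.0456). Krt18 stood at 13.22 and 11.55 against 14.77 and 14.63 (−2.31, adjusted p = 0.0652) and Krt19 at 12.30 and 10.66 against 14.44 and 13.82 (−2.65, adjusted p = 0.0881), neither of them past the threshold although the fractions did not overlap. Krt8, the partner of Krt18, differed least, at 14.36 and 13.76 against 14.59 and 15.04 (−0.75, adjusted p = 0.21). Krt23 went the other way and was higher in MaSC-enriched cells, at 12.19 and 13.15 against 9.19 and 9.77 (3.19, SE 0.42, adjusted p = 0.00548). The Krt7 call ended without any single sample other than the MaSC-enriched sample of pool 1 (adjusted p up to 0.248), while that of Krt23 held without each. Krt18 passed without the MaSC-enriched sample of pool 1 (0.0213) and Krt19 without either ovx MaSC-enriched sample (0.0492).

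**Figure D2:**
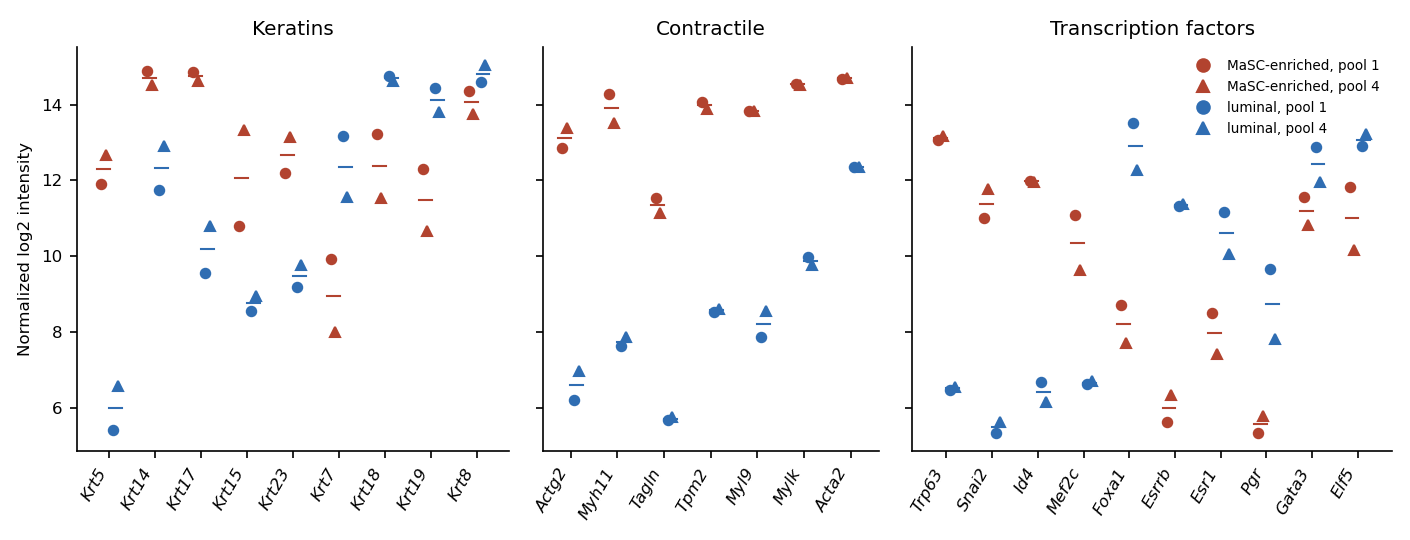
Normalized log2 intensity of keratins, contractile genes and transcription factors in the 4 control samples, with MaSC-enriched cells in red and luminal cells in blue, circles for pool 1, triangles for pool 4 and a bar at the mean of each pair. Krt5, the contractile genes and Trp63 separate the fractions widely, whereas Krt8, Krt18, Gata3 and Elf5 lie closer together.

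Of the 44 lists, the contractile genes had the highest share of members called in 1 direction. Of 20 tested, 16 were higher in MaSC-enriched cells (80%, against 6.91% of all tested genes) and none lower, with a median of 3.43. Actg2, the smooth muscle gamma-actin, stood at 12.86 and 13.39 against 6.22 and 6.99 (6.52, SE 0.41, adjusted p = 0.000459). Myh11, the smooth muscle myosin heavy chain, stood at 14.29 and 13.52 against 7.62 and 7.87 (6.16, SE 0.37, adjusted p = 0.000423). Tagln, an actin-binding protein of smooth muscle, was at 11.54 and 11.14 against 5.69 and 5.76 (5.62), the regulatory light chain Myl9 at 13.83 and 13.84 against 7.86 and 8.55 (5.63), and the myosin light chain kinase Mylk at 14.56 and 14.53 against 9.99 and 9.78 (4.66). The tropomyosin gene Tpm2 stood at 14.08 and 13.88 against 8.52 and 8.62 (5.41), while its other 2 probes lay at 1.01 and 1.08 and did not pass. Acta2, smooth muscle alpha-actin, was higher by 2.33 at its brightest probe (14.68 and 14.70 against 12.36 and 12.36; adjusted p = 0.00413), and its other 4 probes, all called, lay between 1.76 and 5.30.

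Ppp1r14a, an inhibitor of myosin phosphatase, Kcnmb1, the beta subunit of the muscle BK potassium channel, and Lmod1, an actin nucleator, were not detected on any luminal array and were at least 7.46-fold, 7.07-fold and 6.20-fold higher (adjusted p = 0.00125, 0.00366 and 0.00247). Cnn2 (3.16, with its other probe at 2.48 and not called), Flna (3.08), Smtn (3.30), Cald1 (3.82, with its 4 other probes between 0.075 and 2.06 and 1 of them called), Tpm1 (1.83) and the muscle intermediate filament gene Des (2.80) were higher as well. Of the 4 not called, calponin Cnn1 was dim, at 5.76 and 6.25 against 4.94 and 4.86 (1.11, adjusted p = 0.0947). Leaving out any 1 sample left 13 to 18 of the 20 higher. Synm, an intermediate filament gene, passed with the pool as a block (adjusted p = 0.0508, and 0.0247 with the block), and 1 of its 3 other probes was called (0.00917). Calls that ended were those of Smtn, Cald1 and Des without the luminal sample of pool 1 (adjusted p = 0.0791, 0.0616 and 0.112), those of Cald1, Tpm1 and Des without that of pool 4 (0.0617, 0.0595 and 0.0623), and that of Tpm1 without either ovx luminal sample (0.0501).

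Smooth muscle genes are classic targets of serum response factor, which binds the CArG box. The promoters of the 2 called contractile genes that hold a CArG box are shown because most of the list was called higher; they are the 250 bases before the transcription start, from RefSeq on build GRCm38.p6, 5′ to 3′ in the direction of transcription, with the box in capitals. Myl9 lies at chr2:156775214-156775463, plus strand, with the box starting 161 bases before the start, and Cnn2 at chr10:79988350-79988599, plus strand, with the box 56 bases before it.
Myl9: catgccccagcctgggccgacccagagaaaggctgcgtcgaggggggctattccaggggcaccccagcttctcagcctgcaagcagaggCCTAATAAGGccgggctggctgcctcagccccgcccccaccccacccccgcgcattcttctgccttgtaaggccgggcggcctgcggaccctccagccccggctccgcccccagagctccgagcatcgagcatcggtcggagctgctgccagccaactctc
Cnn2: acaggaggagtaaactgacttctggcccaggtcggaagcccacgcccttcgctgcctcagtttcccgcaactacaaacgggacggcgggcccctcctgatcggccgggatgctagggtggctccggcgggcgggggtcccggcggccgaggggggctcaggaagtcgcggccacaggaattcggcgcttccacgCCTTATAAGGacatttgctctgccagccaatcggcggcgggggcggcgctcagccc
RefSeq promoters were at hand for 13 of the 16 higher contractile genes, with 14 start sites, of which 2 (14.3%) held the box. Of the 18 start sites of all tested contractile genes, called or not, 3 held it (16.7%). Over all 32851 promoters of the same length the share was 1.47%. The pattern searched for the box, though not each single match, reads as itself on the opposite strand, so both strands were covered. The window is short, and no match in it says nothing of a box farther away.

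Basal cells secrete part of the basement membrane, a sheet of type IV collagen, laminin, nidogen and perlecan and anchor to it through integrins and hemidesmosomes. Of 21 basement membrane genes tested, 15 were higher in MaSC-enriched cells, none was lower and 6 were not called (median 2.60). Col7a1, the collagen of anchoring fibrils, stood at 13.37 and 13.28 against 6.77 and 7.08 (6.40, SE 0.38, adjusted p = 0.000398). Lama1, the laminin alpha-1 chain, was at 12.75 and 12.65 against 6.67 and 8.02 (5.36, adjusted p = 0.00145). The type IV collagen chains moved unequally: Col4a2 by 5.03, Col4a1 by 4.03, Col4a6 by 2.42 and Col4a5 by 2.06. Perlecan, Hspg2, stood at 13 and 12.77 against 9.12 and 10.31 (3.17, adjusted p = 0.00849). Fbln2 (4.71), Col18a1 (4.71), Sparc (3.98), Fbln1 (3.40), Nid1 (2.46) and Lamc1 (1.87) were also called, and Nid2 and Lamb1, not detected on any luminal array, were at least 4.71-fold and 5.46-fold higher. In contrast Lama5, the alpha-5 chain, stood at −0.46 (adjusted p = 0.619). The count was 9 without the luminal sample of pool 1, where the calls of Sparc, Lamc1, Nid2, Lamb1, Fbln1 and Nid1 ended (adjusted p 0.0689 to 0.171). Those of Nid2 and Lamb1 ended without the luminal sample of pool 4 (0.0636 and 0.0646), those of Fbln1 and Nid1 without either ovx MaSC-enriched sample (0.0535 and 0.0622), and that of Nid1 without either ovx luminal sample (0.0744) or the MaSC-enriched sample of pool 1 (0.0612).

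Of 7 hemidesmosome and laminin-332 genes, 3 were higher. Col17a1, a transmembrane collagen of the hemidesmosome, stood at 13.73 and 13.68 against 7.05 and 7.37 (6.49, SE 0.53, adjusted p = 0.00103). Lamb3, the beta chain of laminin-332, stood at 13.36 and 13.51 against 9.0 and 10.42 (3.73, adjusted p = 0.00651). Itga6, the alpha-6 integrin often used with CD29 to sort basal cells, was at 11.81 and 10.87 against 9.18 and 9.27 (2.12, adjusted p = 0.0143), with its other 2 probes at 0.85 and 1.03 and not called, and its call ended without either control luminal sample (0.0916 and 0.0559). Its hemidesmosome partner Itgb4 did not pass, at 0.26 (adjusted p = 0.67). Among 12 other integrin subunits 6 were higher and none lower (median 1.84): Itga9, a receptor for tenascin and osteopontin, at 11.41 and 10.15 against 5.82 and 5.29 (5.22, adjusted p = 0.00146), Itga8 (2.70), Itga3 (1.90), the fibronectin receptor chain Itga5 (1.78), and the laminin and collagen receptor chains Itga7 and Itga1, undetected in luminal cells and at least 5.16-fold and 2.64-fold higher. The integrin count was 3 without the luminal sample of pool 1, where the calls of Itga5, Itga7 and Itga1 ended (0.118, 0.0595 and 0.0926), and 2 without that of pool 4, where those of Itga8, Itga3, Itga5 and Itga1 ended (up to 0.121). The Itga5 and Itga3 calls ended without either ovx luminal sample (0.0574 and 0.0924), and that of Itga3 without the MaSC-enriched sample of pool 1 (0.117) or either ovx MaSC-enriched sample (0.0722). The Itga9 call held without each sample.

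The interstitial matrix is made largely by fibroblasts. Of 21 such genes 3 were higher (14.3%, against 6.91% of all tested genes) and none lower (median 0.93). These were the elastin gene Eln (12.83 and 11.91 against 7.50 and 8.50; 4.37, adjusted p = 0.00339, with its other probe at 0.36 and not called), the proteoglycan gene Bgn (3.69) and the collagen gene Col16a1 (2.04, whose call ended without the luminal sample of pool 1, adjusted p = 0.0668). The fibrillar collagen Col1a1 overlapped between the fractions, at 8.68 and 9.87 against 6.48 and 9.07 (adjusted p = 0.404). Of 15 proteases and inhibitors 5 were higher: Adamts1 (11.38 and 11.44 against 7.50 and 7.47; 3.93, adjusted p = 0.00324), the gelatinase Mmp2 (4.05), the inhibitor Timp3 (3.95, with its other 2 probes at 1.19 and 1.87 and not called), tissue plasminogen activator Plat (2.92) and Mmp23 (2.29). With the luminal sample of pool 1 left out, the calls of Mmp2, Timp3, Plat and Mmp23 ended (adjusted p up to 0.253), and that of Adamts1 held. The Mmp23 call ended also without any other single sample except the ovx luminal ones.

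Of 19 transcription factors listed for the basal layer, 9 were higher and none lower (median 1.52). Snai2, the Slug repressor of epithelial genes, stood at 11.02 and 11.76 in MaSC-enriched cells, was not detected on any luminal array and was at least 49.3-fold higher (adjusted p = 0.000398). Id4, a helix-loop-helix inhibitor, was at 11.98 and 11.97 against 6.69 and 6.15 (5.55, SE 0.36, adjusted p = 0.000459), and the muscle regulator Mef2c at 11.08 and 9.63 against 6.63 and 6.70 (3.69, adjusted p = 0.0063). Zeb1 (2.16) and Zeb2 (2.69), which repress E-cadherin, Egr2 (1.81), Meis2 (1.58) and Tcf4 (1.55) passed with adjusted p from 0.0343 to 0.0448. E-cadherin itself, Cdh1, overlapped between the fractions, at 12.00 and 12.09 against 12.34 and 11.92 (adjusted p = 0.892). With the pool as a block Zeb1 and Meis2 did not pass (0.0734 and 0.0666). The calls of Egr2, Zeb1, Zeb2, Meis2 and Tcf4 each ended without any sample other than the MaSC-enriched sample of pool 4 (adjusted p up to 0.213), and that of Mef2c without the luminal sample of pool 1 (0.0543). The list then held 3 calls without the luminal sample of pool 1, 4 without any other sample that ended calls and 11 without the MaSC-enriched sample of pool 4.

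Of 15 genes associated with stem cells in earlier work, 7 were higher and none lower (median 2.17). Lgr5, the R-spondin receptor that marks stem cells of several epithelia, stood at 9.49 and 8.68, was not detected in luminal cells and was at least 9.97-fold higher (adjusted p = 0.00374). Bcl11b, a zinc finger repressor also carried by the progenitor list, was at 10.52 and 10.85 against 6.12 and 6.24 (4.51, SE 0.31, adjusted p = 0.000571), and the neurotrophin receptor Ngfr at 8.65 and 8.94 against 6.08 and 5.68 (2.92, adjusted p = 0.00309). The hyaluronan receptor Cd44 was at 12.10 and 12.32 against 9.79 and 10.29 (2.17, adjusted p = 0.00789), with 2 of its other 6 probes called, in the same direction, and the intermediate filament Vim at 12.32 and 11.75 against 8.65 and 9.78 (2.82, adjusted p = 0.0231). The protein C receptor Procr, used to mark a rare basal stem cell, was at 8.35 and 7.02 against 6.06 and 5.70 and passed with the pool as a block (adjusted p = 0.0566, and 0.0448 with the block). Jag2 and Cdh5, the other 2 members called, are described with Notch and with the endothelial markers. Without the luminal sample of pool 1 the count was 4, and the calls of Cd44, Vim and Cdh5 ended (0.0562, 0.146 and 0.168). That of Vim ended also without the MaSC-enriched sample of pool 1 (0.0719).

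Luminal transcription factors were lower or not called. Of 21 tested, 5 were lower in MaSC-enriched cells (against 4.85% of all tested genes) and none higher, with a median of −1.40. Foxa1, the pioneer factor that opens chromatin for the oestrogen receptor, stood at 8.72 and 7.72 against 13.53 and 12.27 (−4.68, SE 0.70, adjusted p = 0.00876). Esrrb, an orphan nuclear receptor, stood at 5.63 and 6.34 against 11.33 and 11.39 (−5.37, SE 0.37, adjusted p = 0.000592). Grhl1 (−2.47), an activator of epithelial junction genes, and Stat5a (−1.78), the effector of prolactin, were lower, Stat5a with its other probe at −0.61 and not called. Spdef, an Ets factor of secretory cells, was not detected in MaSC-enriched cells and was at least 1.71-fold lower (adjusted p = 0.00979). Gata3, which specifies luminal fate, stood at 11.56 and 10.84 against 12.89 and 11.96 (−1.23, adjusted p = 0.117), and Elf5, the driver of alveolar fate, at 11.84 and 10.17 against 12.91 and 13.22 (−2.06, adjusted p = 0.127); neither passed, though the fractions did not overlap, and 1 of the other 2 probes of Elf5 was called (0.0172). With the pool as a block 8 of the 21 were lower. With the luminal sample of pool 1 left out, the Esrrb call alone was left (adjusted p up to 0.152 for the other 4). The calls of Grhl1 and Stat5a ended also without the luminal sample of pool 4, either ovx luminal sample or the MaSC-enriched sample of pool 1 (up to 0.0813), and that of Stat5a without either ovx MaSC-enriched sample (0.0505).

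Part of the luminal layer senses ovarian hormones and signals to its neighbours. Of 13 hormone receptor and hormone-sensing genes tested, 5 were lower in MaSC-enriched cells and none higher, though the list median was 0.04. Esr1, the oestrogen receptor, stood at 8.50 and 7.44 against 11.16 and 10.06 (−2.64, SE 0.51, adjusted p = 0.0209), while a second probe stood at 0.60 and was not called. Pgr, the progesterone receptor, was at 5.35 and 5.79 against 9.66 and 7.81 (−3.16, SE 0.62, adjusted p = 0.0216). Wnt4, a progesterone-induced Wnt ligand, was at 6.78 and 6.70 against 11.20 and 10.69 (−4.21, SE 0.43, adjusted p = 0.00227). Tnfsf11, which encodes RANK ligand, the paracrine signal by which progesterone acts on neighbouring cells, was at 6.42 and 6.65 against 10.41 and 11.09 (−4.21, SE 0.33, adjusted p = 0.000956). Prlr, the prolactin receptor, had no tested probe. Without the luminal sample of pool 1 the calls of Esr1, Pgr and Cited1 ended and 2 of 13 were lower (adjusted p = 0.13, 0.0811 and 0.0541). That of Pgr ended without the MaSC-enriched sample of pool 1 (0.0656) and that of Esr1 without either ovx luminal sample (0.0535).

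Of 12 RANK pathway genes tested, 1 was lower, Tnfsf11, 1 was higher (8.33%, near the 6.91% over all tested genes) and 10 were not called. Tnfrsf11b, which encodes osteoprotegerin, the soluble decoy that binds RANK ligand, stood at 8.74 and 10.74 in MaSC-enriched cells, was not detected in luminal cells and was at least 15.6-fold higher (adjusted p = 0.0129). Its call ended without either control luminal sample (adjusted p = 0.0971 and 0.0577). The gene of the receptor RANK, Tnfrsf11a, overlapped between the fractions, at 9.28 and 7.12 against 6.95 and 7.77 (0.83, adjusted p = 0.51).

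Tight junctions seal the luminal layer. Of 16 of their genes tested, 7 were lower in MaSC-enriched cells, 2 were higher and 7 were not called (median −1.43). Marveld3 stood at 7.39 and 7.08 against 10.52 and 10.16 (−3.10, SE 0.32, adjusted p = 0.00247). Ocln, occludin, stood at 8.83 and 9.37 in luminal cells, was not detected in MaSC-enriched cells and was at least 5.88-fold lower (adjusted p = 0.00257). The scaffold Tjp3 was at 6.88 and 6.57 against 9.95 and 10.27 (−3.39, adjusted p = 0.00612), and the claudins Cldn3 (−2.90), Cldn23 (−2.63), Cldn4 (−2.45) and Cldn7 (−1.85) were lower too. Cldn5, the claudin of endothelium, was higher (11.88 and 10.93 against 7.94 and 8.77; 3.05, adjusted p = 0.0231), as was Cldn12 (1.15), which did not pass with the pool as a block (0.0666). Without either control luminal sample or either ovx luminal sample 4 of the 16 were lower. The calls of Cldn3, Cldn4 and Cldn7 ended in each of these fits and that of Cldn23 without the luminal sample of pool 1 (adjusted p up to 0.166). Those of Cldn5 and Cldn12 ended without either control luminal sample or the MaSC-enriched sample of pool 1 (up to 0.166), and that of Cldn12 also without any ovx sample (up to 0.117).

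Snail and ZEB proteins repress junction genes through E-boxes of the form CAGGTG or CACCTG, the same site read on both strands. The promoters of Tjp3 and Cldn4 are shown, the lower tight junction genes whose first listed start has such a site. Whether repressors of this kind act on the lower genes was not tested. The strand, build and window are as above, and capitals mark the E-box. Tjp3 lies at chr10:81291582-81291831, minus strand, with the site starting 108 bases before the start, and Cldn4 at chr5:134946935-134947184, minus strand, with the site 14 bases before it.
Tjp3: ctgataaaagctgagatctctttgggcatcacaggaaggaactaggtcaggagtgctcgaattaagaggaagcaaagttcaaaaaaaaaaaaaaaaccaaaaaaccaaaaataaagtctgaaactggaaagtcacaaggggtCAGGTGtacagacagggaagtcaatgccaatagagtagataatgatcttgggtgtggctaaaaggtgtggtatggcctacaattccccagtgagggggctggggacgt
Cldn4: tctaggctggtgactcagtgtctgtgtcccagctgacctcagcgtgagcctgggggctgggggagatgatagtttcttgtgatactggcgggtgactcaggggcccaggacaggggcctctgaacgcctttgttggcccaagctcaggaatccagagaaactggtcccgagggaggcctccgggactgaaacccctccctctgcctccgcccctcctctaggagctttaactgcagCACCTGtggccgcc
RefSeq promoters were at hand for 5 of the 7 lower tight junction genes, and 5 of their 8 start sites held the site, in Tjp3, Cldn4, Ocln and Cldn7. Over all promoters of that length the share was 17.2%. Of the 22 start sites of the 14 tested members with a promoter 10 held it (45.5%), among them genes that were not called. Counted by gene, 4 of the 5 lower genes held it, against 8 of the 14 tested members and 19.4% of all genes. A match is a stretch of letters and not a bound site.

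Among 14 cadherin and desmosome genes, 2 were higher and 1 lower (14.3% and 7.14%, against 6.91% and 4.85% over all tested genes). Cdh3, P-cadherin, the cadherin of myoepithelium, stood at 11.68 and 11.72 against 5.56 and 6.63 (5.61, SE 0.39, adjusted p = 0.000624). The desmosomal plakophilins divided between the fractions: Pkp1 was higher (11.30 and 11.40 against 7.61 and 8.30; 3.39, adjusted p = 0.00192) and Pkp2 lower (8.79 and 8.28 against 11.59 and 11.79; −3.15, adjusted p = 0.00789). Connexins, the channels of gap junctions, divided in the same way. Gja1 (14.71 and 14.89 against 11.41 and 12.65; 2.77, adjusted p = 0.0148), Gja4 (3.20) and Gjc1 (undetected in luminal cells, at least 3.66-fold) were higher, and Gjb2 (9.79 and 9.81 against 11.46 and 12.89; −2.38, adjusted p = 0.0342) and Gjb6 (−2.84, adjusted p = 0.0368) lower. The calls of Pkp2 and Gja1 ended without the luminal sample of pool 1 (0.0555 and 0.0791). Those of Gjb2 and Gjb6 ended without the luminal sample of pool 4, the MaSC-enriched sample of pool 1 or either ovx luminal sample, and that of Gjb6 also without either ovx MaSC-enriched sample (adjusted p up to 0.126).

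Surface and secretory genes of luminal cells were lower in part. Of 15 luminal surface and progenitor markers 1 was higher, Bcl11b, and 4 were lower: Muc1, the apical mucin (8.27 and 7.65 against 9.81 and 10.39; −2.13, adjusted p = 0.0235, and 0.0502 with the pool as a block), the complement regulator Cd55 (−2.06), the adhesion molecule Ceacam1 (−2.40) and the retinal dehydrogenase Aldh1a3 (−2.52). The progenitor receptor Kit stood at 10.20 and 9.22 against 11.71 and 11.99 (−2.14, adjusted p = 0.0847) and was not called, while its other probe stood at −2.68 and was (0.0039). All 4 lower calls ended without either control luminal sample (adjusted p up to 0.161), those of Muc1 and Aldh1a3 also without either ovx luminal sample (0.0555 and 0.0847), that of Ceacam1 without either ovx MaSC-enriched sample (0.0509) and that of Aldh1a3 without the MaSC-enriched sample of pool 1 (0.115). Of 15 milk genes 2 were lower (13.3%, against 4.85% of all tested genes). They were the whey acidic protein gene Wap (8.15 and 8.55 against 9.95 and 11.97; −2.61, adjusted p = 0.0393) and Muc15 (−1.82), which did not pass with the pool as a block (0.0693). The beta-casein gene Csn2 was bright in both fractions, at 14.20 and 13.95 against 14.93 and 14.59 (−0.68, adjusted p = 0.524). The milk list's summed intensity was 124700 and 84480 against 147300 and 151500; its part in other results was not tested. The calls of Wap and Muc15 ended without the luminal sample of pool 4, any ovx sample or the MaSC-enriched sample of pool 1, and that of Muc15 without either of the 2 remaining samples too (adjusted p up to 0.159).

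Of 20 ion, water and solute transport genes 5 were lower and 2 higher (median −1.60). The epithelial sodium channel chain Scnn1a, undetected in MaSC-enriched cells, was at least 8.47-fold lower (adjusted p = 0.0261). The sodium pump subunit Atp1b1 stood at 10.16 and 9.24 against 12.10 and 12.52 (−2.61, adjusted p = 0.0113), and the glucose transporter Slc5a1 at 5.58 and 5.47 against 7.64 and 8.31 (−2.45). Clcn3 (−1.98) and Clca1 (−1.54) were the other lower ones. The water channel Aqp1, a gene also of endothelium, was higher (14.11 and 13.07 against 11.54 and 11.35; 2.14, adjusted p = 0.0368), as was the calcium channel Trpv6 (2.76, with its other probe at 0.88 and not called). With the luminal sample of pool 1 left out, none of the 7 calls remained (adjusted p up to 0.225). The Clcn3 call ended without the MaSC-enriched sample of pool 4 (0.0647), those of Aqp1 and Clca1 without that of pool 1 (0.108 and 0.0532) and that of Clca1 without either ovx MaSC-enriched sample (0.0531). Scnn1a alone of the 7 held without the luminal sample of pool 4, and Atp1b1 and Slc5a1 without either ovx luminal sample. Of 24 fatty acid and milk fat genes 1 was lower (4.17%, near the 4.85% over all tested genes). It was the lipogenic regulator Srebf1 (−1.74, adjusted p = 0.0305, and 0.0534 with the pool as a block), whose call ended without any sample but the MaSC-enriched sample of pool 4. Of 15 cholesterol genes none was called. The medians of these 2 lists were −0.47 and −0.31.

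Wnt signals maintain mammary stem cells. Of 8 ligands, 2 were higher and 2 lower, and none of these 4 calls ended when any 1 sample was left out. Wnt10a stood at 10.73 and 11.76 against 5.32 and 6.25 (5.46, SE 0.57, adjusted p = 0.00249) and Wnt6 at 8.48 and 10.40 against 5.12 and 5.02 (at least 12.7-fold by its brightest probe, with another probe detected on 1 luminal array; adjusted p = 0.00534). Wnt7b was lower, at 5.98 and 6.75 against 11.05 and 9.88 (−4.10, SE 0.51, adjusted p = 0.00444), beside Wnt4 described above. Of 25 receptors, inhibitors and targets 7 were higher and none lower (median 1.17). Most of the 7 are secreted or intracellular inhibitors: Wif1 (13 and 12.96 against 6.97 and 7.22, difference 5.89, SE 0.31, adjusted p = 0.000398), Nkd2 (4.73), Nkd1, Sfrp1 (3.62) and Sfrp2 (1.87). Dkk3 (4.84) was called as well. The brightest probe of Nkd1 was at least 14.7-fold higher, while another, detected on 1 luminal array, stood at −0.39 and was not called. The receptor Fzd7 was higher by 2.57 (adjusted p = 0.00988). Axin2, a direct target of the pathway, stood at 8.87 and 8.38 against 5.88 and 7.63 (1.87, adjusted p = 0.0878). The calls of Fzd7 and Sfrp2 ended without the luminal sample of pool 1 (0.0749 and 0.106), and that of Sfrp2 without that of pool 4 (0.0567) or either ovx luminal sample (0.0542).

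Of 16 Notch pathway genes 2 ligands were higher (12.5%, against 6.91% of all tested genes) and no member lower. Dll1 stood at 12.12 and 11.30 against 6.43 and 5.84 (5.58, SE 0.47, adjusted p = 0.00121), and Jag2, undetected in luminal cells, at 9.80 and 10.15 (at least 18.4-fold, adjusted p = 0.000459). Receptors and targets missed the threshold. The target Hes1, at 10.67 and 9.64 against 12.31 and 10.97 (−1.48), passed as lower with the pool as a block (adjusted p = 0.14, and 0.0385 with the block). In the EGF family the 4 calls fell on ligands and receptors of both layers. Nrg1, neuregulin-1, stood at 10.11 and 11.25, was undetected in luminal cells and was at least 30.1-fold higher (adjusted p = 0.000717). Its receptor family member Erbb2 was lower (8.06 and 7.70 against 10.04 and 9.76; −2.02, adjusted p = 0.024), Egfr was higher (2.30) and its ligand Btc, betacellulin, lower (4.99 and 6.27 against 9.04 and 10.03; −3.91, adjusted p = 0.00518). The calls of Egfr and Erbb2 ended without the luminal sample of pool 1 (0.116 and 0.145), that of Egfr without the MaSC-enriched sample of pool 1 (0.057), and that of Erbb2 without the luminal sample of pool 4 (0.0708) or either ovx luminal sample (0.0639).

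Secreted modulators of growth factors were among the strongest calls of the IGF, TGF-beta and BMP lists. Of 18 IGF and FGF genes 5 were higher and none lower: the IGF-binding proteins Igfbp3 (12.78 and 13.49 against 7.16 and 7.75; 5.68, SE 0.50, adjusted p = 0.00137), Igfbp2 (at least 40.1-fold by its brightest probe, with another probe detected on 1 luminal array), Igfbp4 (2.77) and Igfbp7 (2.07), and the receptor Igf1r (2.54). Without the luminal sample of pool 1 the calls of Igfbp4, Igfbp7 and Igf1r ended and 2 remained (adjusted p 0.0685 to 0.096), without the luminal sample of pool 4 that of Igf1r ended (0.0567), and without the MaSC-enriched sample of pool 4 the count was 8. Of 25 TGF-beta and BMP genes 5 were higher and 2 lower (20% and 8%, against 6.91% and 4.85% over all tested genes). Fst, follistatin, which traps activin, stood at 13.13 and 13.27 against 6.59 and 7.13 (6.34, SE 0.36, adjusted p = 0.000398). Bmp7 stood at 10.55 and 11.62 against 5.85 and 6.81 (4.76), and the co-receptor Tgfbr3 at 13.06 and 12.64 against 8.82 and 9.14 (3.87), with its other probe at 2.22 and not called. Bmp3, undetected in MaSC-enriched cells, was at least 14.6-fold lower (adjusted p = 0.00248), and the receptor Bmpr1b was lower (7.13 and 6.87 against 10.01 and 9.92; −2.96, adjusted p = 0.00386). Ltbp4 and Id1 were called as well, and without the luminal sample of pool 1 neither call remained (adjusted p = 0.0622 and 0.156). The Id1 call also ended with the pool as a block (0.0544), without the luminal sample of pool 4 (0.158), without the MaSC-enriched sample of pool 1 (0.129) and without either ovx luminal sample (0.0802).

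Axon guidance molecules also steer ductal growth and adhesion between the layers. Of 29 tested, 12 were higher in MaSC-enriched cells, 1 was lower and 16 were not called (median 1.43). Sema5a stood at 11.91 and 11.55 against 5.75 and 6.46 (5.63, SE 0.38, adjusted p = 0.00053). Slit2, a ligand of Robo receptors, stood at 10.21 and 9.77 against 5.51 and 6.78 (3.85, SE 0.45, adjusted p = 0.00374), with its 3 other probes between −0.16 and 2.23, of which 1 was called. Slit3 (3.45), Sema3c (3.16), Sema3b (3.03, with its other 2 probes at 0.49 and 1.79 and not called), Plxna2 (2.90), Efna5 (2.00, with its other probe at 0.11 and not called), Efnb1 (1.78) and Efnb2 (undetected in luminal cells, at least 3.88-fold) were higher, as were Plxnd1, Nrp1 and Robo1. Sema4d was lower and near the limit of detection. With the luminal sample of pool 1 left out, Sema5a and Slit2 alone remained called among the 29 (adjusted p up to 0.182), and without that of pool 4 or either ovx luminal sample 8 were higher. The calls of Sema3b, Efnb1, Nrp1, Robo1 and Sema4d ended without the luminal sample of pool 4 (up to 0.127), those of Efnb1, Plxnd1, Nrp1, Robo1 and Sema4d without either ovx luminal sample (up to 0.108), those of Plxnd1, Nrp1 and Sema4d without the MaSC-enriched sample of pool 1 (up to 0.0853), that of Robo1 without that of pool 4 (0.0573), and those of Robo1 and Sema4d without either ovx MaSC-enriched sample (0.053 and 0.065). Plxnd1, Robo1 and Sema4d did not pass with the pool as a block (0.0558, 0.0659 and 0.0616).

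Of 25 cytokine and chemokine genes 5 were higher and 3 lower. Cxcl14 stood at 14.39 and 13.92 against 7.81 and 7.70 (6.40, SE 0.35, adjusted p = 0.000398), Cxcl12, the ligand of CXCR4, at 13.51 and 12.29 against 9.28 and 9.73 (3.40, adjusted p = 0.00648), and Il6 at 11.25 and 10.82 against 8.19 and 8.25 (2.82, adjusted p = 0.00444). Csf1 (2.80), the macrophage growth factor, and Cxcl9 (2.63) were higher as well. Il33 (−2.90), an alarmin, Tnf (−2.06) and Cxcl15 were lower, and Tnf did not pass with the pool as a block (0.0792). Without the luminal sample of pool 1 Cxcl14 and Il6 alone remained called of the 8 (adjusted p up to 0.161), and without the MaSC-enriched sample of pool 1 or either ovx luminal sample the Cxcl15 call alone remained of the 3 lower ones. The calls of Il33 and Tnf ended also without the luminal sample of pool 4 (0.0664 and 0.173), and that of Tnf without any other sample too.

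**Figure D3:**
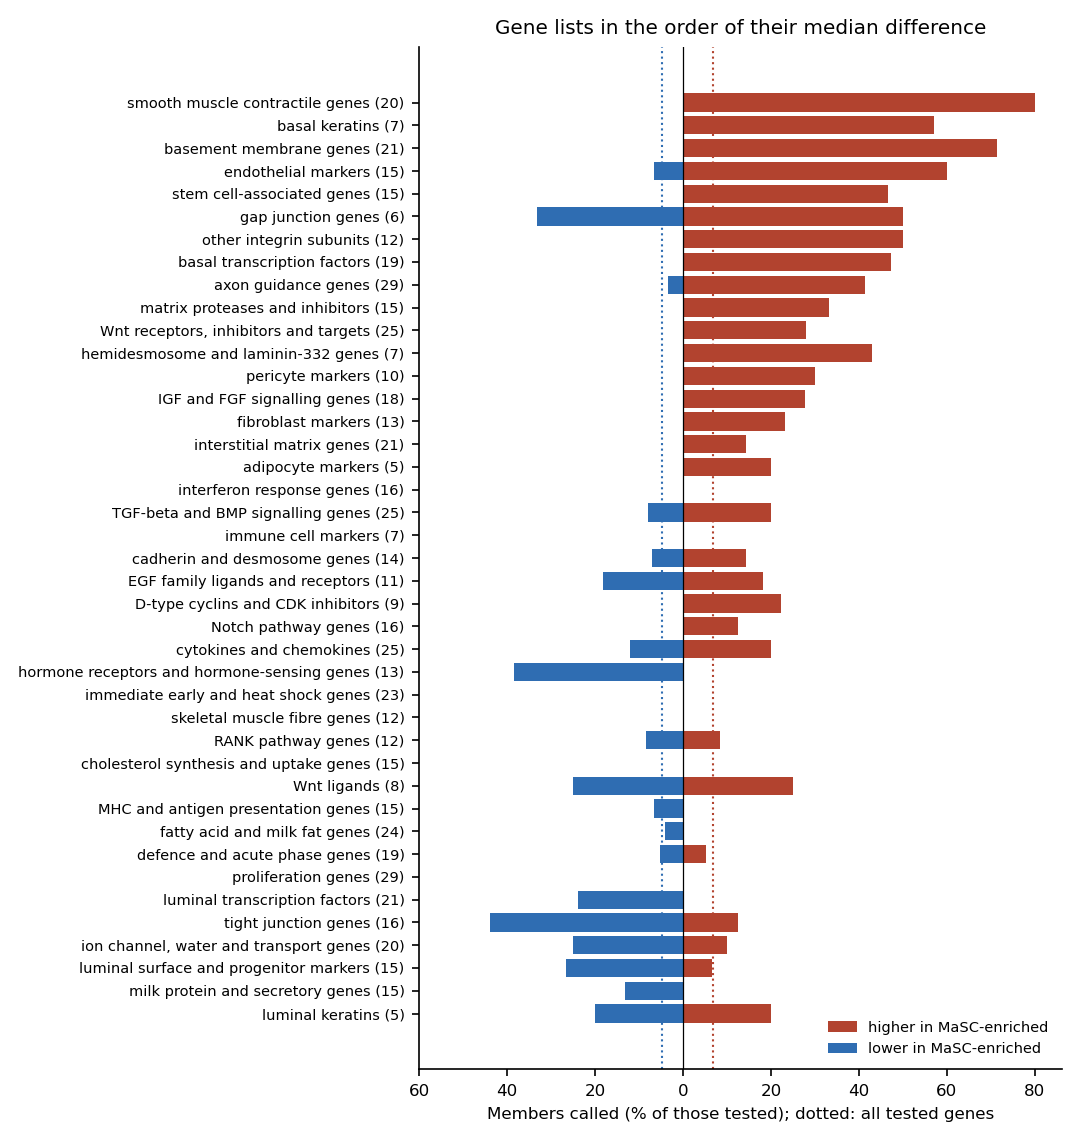
Share of the tested members, in each gene list with at least 5 of them, called higher (red, to the right) or lower (blue, to the left) in MaSC-enriched cells, in percent, with the number tested in brackets and lists ordered by their median difference. Dotted lines mark the share over all tested genes, 6.91% higher and 4.85% lower; contractile, basement membrane, endothelial and basal keratin genes reach farthest right, and tight junction and hormone receptor genes farthest left.

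None of 29 proliferation genes tested was called (median −0.66), and their summed intensity was 12040 in MaSC-enriched and 16470 in luminal cells of pool 1, against 67690 and 86070 in pool 4. Cdk1, the mitotic kinase, stood at 5.68 and 11.59 in MaSC-enriched and at 7.66 and 11.64 in luminal cells, with an SE of 1.90 for the difference. Pool 4 samples thus lay high in both fractions. The pools also parted on the second principal component (21.2% of the variance), at −92.5 and −73.9 for pool 4 against 44.9 and 1.14 for pool 1, while the first (55.8%) parted the fractions. The part of proliferation in the results on fractions was not tested. Among 9 D-type cyclins and inhibitors 2 were higher: the cell cycle inhibitor Cdkn1c (11.86 and 11.74 against 8.08 and 9.35; 3.08, adjusted p = 0.00876) and the cyclin Ccnd2, at 9.64 and 9.91 and at least 16.1-fold higher by its brightest probe, with another probe detected on 1 luminal array (adjusted p = 0.00457). No member of the immediate early and heat shock list (23 tested, median −0.04) or of the interferon list (16 tested, median 0.50) was called. Of 15 antigen presentation genes 1 was lower (6.67%, near the 4.85% over all tested genes). It was the immunoproteasome subunit Psmb8 (−1.91, adjusted p = 0.00977), whose call ended without the luminal sample of pool 1 (0.0668). Of 19 defence and acute phase genes 1 was higher and 1 lower (5.26% each, near the 6.91% and 4.85% over all tested genes). The higher one was Chil1 (2.73). The lower one was Saa1 (−2.28, adjusted p = 0.0356, and 0.0566 with the block), whose other probe stood at 1.06 and was not called. Both calls ended without the luminal sample of pool 4 (0.11 and 0.0615), the MaSC-enriched sample of pool 1 (0.107 and 0.106) or either ovx MaSC-enriched sample (0.0597 and 0.0643), that of Saa1 without the luminal sample of pool 1 (0.2) and that of Chil1 without either ovx luminal sample (0.0722).

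Endothelium was to be removed in the sort by CD31. Of 15 endothelial markers tested 9 were higher in MaSC-enriched cells and 1 was lower (median 2.45). Pecam1, the gene of CD31 itself, stood at 10.80 and 9.58 against 7.58 and 7.90 (2.45, SE 0.57, adjusted p = 0.0397). Emcn stood at 11.73 and 11 against 8.93 and 8.86 (2.47, adjusted p = 0.0218), Sox17 at 10.34 and 9.22 against 7.06 and 7.10 (2.70), Esam at 13.21 and 12.11 against 9.93 and 10.19 (2.60), Robo4 at 11.89 and 10.62 against 8.32 and 8.46 (2.87) and VE-cadherin Cdh5 at 10.81 and 9.75 against 7.28 and 7.74 (2.77). Tek (2.17), Lyve1 (1.81) and Cldn5 were also called, and Prox1, a lymphatic marker that other cells use too, was lower and undetected in MaSC-enriched cells (at least 2.12-fold, adjusted p = 0.00382). The summed intensity of the list was 38710 and 16990 in MaSC-enriched cells against 6229 and 5490 in luminal cells. It was largest in the MaSC-enriched sample of pool 1, and without that sample or the luminal sample of pool 1 none of the 9 was called; Lyve1 alone was without the luminal sample of pool 4 and Cldn5 alone without either ovx luminal sample, Lyve1 was lost without either ovx MaSC-enriched sample (0.053), and 12 were without the MaSC-enriched sample of pool 4. Pecam1, Cdh5 and Tek did not pass with the pool as a block (0.0506, 0.052 and 0.0585). The part of such cells in the genes they share with the basal fraction, among them Sparc, Col4a1, Col4a2, Hspg2, Nrp1, Mef2c and Aqp1, was not tested.

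Pericyte markers gave 3 higher of 10 (Mcam, Higd1b and Rgs5, with adjusted p from 0.0274 to 0.0456) and a summed intensity of 10710 and 4117 against 4046 and 4004. None of the 3 was called without the MaSC-enriched sample of pool 1, either control luminal sample or either ovx luminal sample, and Rgs5 did not pass with the pool as a block (0.0638). Fibroblast markers gave 3 of 13, led by the collagen gene Col14a1 (12.44 and 12.80 against 6.43 and 7.83; 5.49, SE 0.68, adjusted p = 0.00444), with Pdgfrl (2.31) and Abca8a (2.74), while Pdgfra, a defining fibroblast receptor, stood at 9.23 and 9.15 against 7.58 and 8.81 (0.99, adjusted p = 0.196). Their summed intensity was 15820 and 19940 against 3100 and 8968, with the Col14a1 call alone left without the luminal sample of pool 1 and 5 calls without the MaSC-enriched sample of pool 4. The Pdgfrl call ended also without the luminal sample of pool 4 (0.0679), and that of Abca8a without the MaSC-enriched sample of pool 1 (0.113) or any ovx sample (up to 0.0576). Immune markers stayed low: none of the 7 tested was called, Ptprc, the gene of CD45, had no tested probe, and the sum over the 16 on the array was 2377 and 1944 against 870.2 and 1384. None of 12 skeletal muscle fibre genes and none of 3 red blood cell genes was called. Of 5 adipocyte markers, Pparg alone was called (2.22, adjusted p = 0.0407), with its other probe at 0.52 and not called, and it did not pass with the pool as a block (0.0692) nor without the MaSC-enriched sample of pool 1, either control luminal sample or either ovx luminal sample (up to 0.21). Of 4 Schwann cell markers tested Ngfr and Pmp22 (3.55) were higher, genes that basal cells use too, and the brightest probe of Mbp was lower (−2.22) while its other 2 stood at 1.35 and 3.56, the latter called as higher. The Mbp call ended without the luminal sample of pool 1 (0.115).

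**Figure D4:**
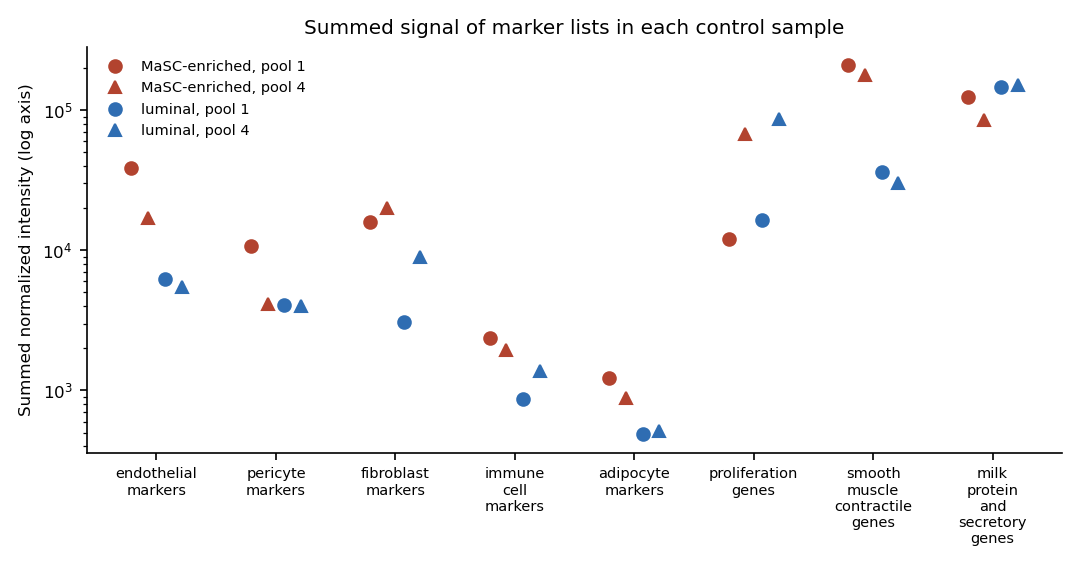
Summed normalized intensity (log axis) of 8 gene lists in the 4 control samples, MaSC-enriched in red and luminal in blue, circles for pool 1 and triangles for pool 4. Endothelial, pericyte, fibroblast, immune, adipocyte and contractile sums are higher in both MaSC-enriched samples, the pericyte sum of pool 4 only slightly. Proliferation sums are higher in both samples of pool 4.

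The same comparison in the ovx mice, which share no sample with the control comparison, gave the same direction for 1306 of the 1328 called genes (98.3%, against 79.5% of all tested genes). The ovx fractions did not overlap, in the control direction, for 751 of the 780 higher genes (96.3%) and 519 of the 548 lower genes (94.7%), where 67% of all tested genes did not overlap in either direction. Both sets of samples entered the fit that called the genes, the ovx ones through the normalization, the filter on dim probes and the estimate of spread. Trp63 differed by 7.79 in ovx mice, Krt5 by 7.43, Myh11 by 7.0, Foxa1 by −4.53 and Wnt4 by −3.73. The test of the difference between control and ovx mice called 0 of 11292 genes (0%) in limma, and 578 had an unadjusted p under 0.05; other settings called 0 to 3.

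Some genes lower in MaSC-enriched cells of control mice differed less between the fractions in ovx mice. Esrrb stood at 5.17 and 4.81 in ovx MaSC-enriched and at 5.45 and 6.00 in ovx luminal cells (control minus ovx difference −4.64, SE 0.52, unadjusted p = 3.99e-05, adjusted p = 0.113). Tnfsf11 stood at 5.58 and 5.79 against 5.91 and 5.81 (−4.03, SE 0.47, unadjusted p = 5.02e-05, adjusted p = 0.113). The ovx values of Esrrb and Tnfsf11 lay under or near the dimmest detected probe of the ovx arrays, at 5.73 to 5.93. The levels of these 2 genes in the ovx fractions can thus not be compared. Bmp3 (−0.80 in ovx mice), Ctsr (0.16) and Tph1 (−2.09) lay nearer 0 there, with adjusted p for the difference from 0.324 to 0.662. On the basal side Cd44 was higher in MaSC-enriched cells of control mice and stood at 11.59 and 11.31 against 12.18 and 12.34 in ovx mice (adjusted p = 0.221 for the difference), Slit2 stood at 8.84 and 9.10 against 8.77 and 8.72 (adjusted p = 0.324), and Masp1, a complement protease gene, at 10.05 and 8.76 against 10.65 and 10.55 after 10.40 and 9.32 against 6.31 and 6.34 in control mice (adjusted p = 0.252). None of these differences between control and ovx mice passed the threshold.

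**Figure D5:**
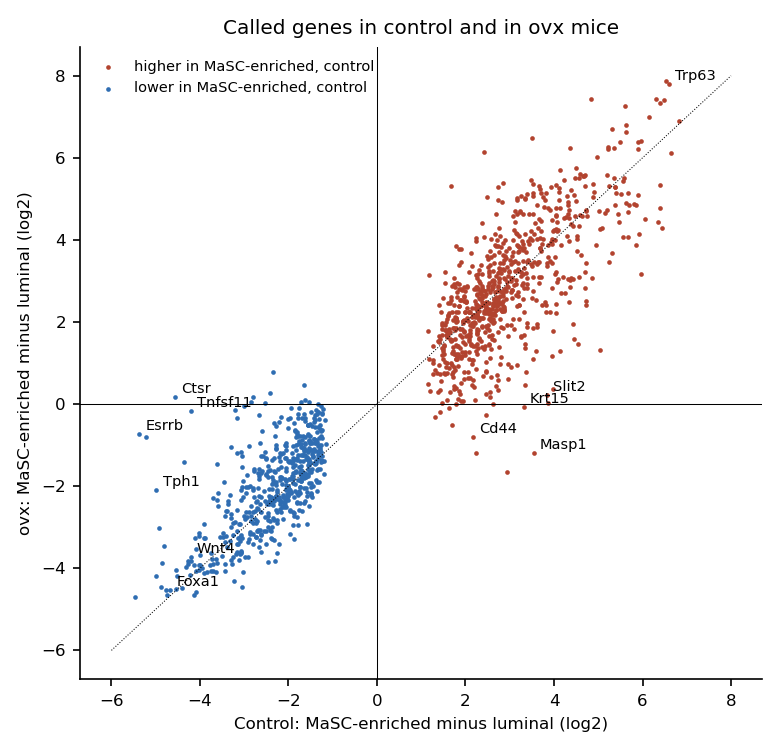
MaSC-enriched minus luminal difference (log2) of the 1328 called genes in control mice (x axis) and in ovx mice (y axis), higher genes in red and lower genes in blue, with the dotted line at equal values. Most genes follow the line, while Esrrb, Tnfsf11, Ctsr, Cd44 and Masp1 lie away from it near or past 0 in ovx mice.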

How the data were processed

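Per the file headers, the deposited signal table holds unnormalized bead intensities with a detection p-value beside each, for 45281 probes and 12 arrays. The authors also deposited a series table of log2 values, which correlated at 1 with limma's neqc at an offset of 50. BeadStudio and limma appear in the submitters' processing notes with no version. Here limma 3.58.1 (R 4.3.3) ran neqc with an offset of 16, which corrects background through the detection p-values, normalizes the 12 arrays by quantiles and takes log2; arrays of 1 RNA were then averaged. A probe was kept at a mean detection p under 0.05 in 2 or more of the 8 samples, which left 20995 probes (46.4%) and 11292 genes, each read from its brightest kept probe. One symbol was given for 34885 probes, several for 18 and none for 10378. The fit had 4 group means (4 residual and 3.22 prior degrees of freedom), two-sided moderated tests and Benjamini-Hochberg adjustment. An exact test of 2 samples against 2 cannot go below p = 0.333; precision is limited by having 2 pools a group. The labels pair the fractions by mouse pool. Deviations from the group means correlated at 0.367 in the control and 0.135 in the ovx pools, and a fit with the pool as a block was an alternative. The fits were tested on simulated data.

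The comparison, the 44 gene lists (821 genes, 634 tested) and the rule for names were chosen with earlier results of these data known. The rule takes the 12 largest called genes without overlap in each direction, clone and locus names aside, up to 6 members of each list by smallest p, and fixed markers. Further list members and Masp1 were named after their values were seen. RefSeq promoters on GRCm38.p6 were searched with Python 3.11.15.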

Additional observations from a re-analysis of the deposited data

How the results depend on the processing

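All 1328 called genes that were tested in a setting kept their direction in it. In the fits that leave out samples or hold 1 pool, this was fixed beforehand, because the fractions of every called gene did not overlap. It was fixed also with the pool as a block, with another filter on dim probes and with the control samples alone in the fit. Those fits reuse the same group means. Of 195 called genes named here 43 were called in every alternative and 83 without each sample in turn. Leaving out 1 sample gave 317 to 1481 higher and 134 to 1392 lower genes. The counts of higher and lower genes were 245 and 73 with the control samples alone in the fit, 250 and 77 with the 6 control arrays both normalized and fitted alone, 95 and 31 within beadchip 1 (1 control luminal sample), 1273 and 1183 in pool 1 alone, and 405 and 171 in pool 4 alone; the last 2 fits rest on 1 sample a side, and these and the beadchip fit assume that a lone sample varies like the other groups. With the pool as a random block they were 1057 and 891. Some of these fits hold fewer samples, and beyond that the cause was not tested. The higher share of the calls ran from 51.5% to 77%, against 58.7%. With the mouse pool as a fixed replicate block the counts were 785 and 562, with 1145 genes called in both fits; apart from the genes given with a block value above, and the list counts it moved, the block changed no call of a named gene.

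The test between control and ovx mice called 2 genes with an offset of 50, with the deposited table and with the pool as a random block (Nrcam and Trim9), 3 without background correction (also Esrrb), 1 without a filter on dim probes (Trim9), and 2 with single arrays fitted with the beadchip as a block and a random effect for each RNA (Esrrb and Trim9). Differences that turned sign, none of them called, were those of Cd24a (0.042 in pool 4 alone), Cdh1 (0.010 on first arrays, 0.17 in pool 4 alone, −0.30 to 0.13 without 1 sample), Cdk1 (1.16 and 1.87 within beadchips 1 and 2, −3.96 to 1.94 without 1 sample), Itgb4 (−0.19 within beadchip 2, −0.10 to 0.62 without 1 sample), Lama5 (−1.12 to 0.20 without 1 sample) and Tnfrsf11a (−0.019 within beadchip 2, −0.66 in pool 4 alone, −0.25 to 1.92 without 1 sample). Dim probes limit the folds given as at least.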
